A study of Homo sapiens with 12 samples.

Results

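Gene expression after thyroxine (T4) was compared with that after the DMSO control in cells at day 7 of differentiation, by sequencing of total RNA. The comparison used 4 of the 12 libraries of the series, 2 per group: cells given 30 nM T4 and control cells given 0.1% DMSO. All were derived from the human embryonic stem cell line H9, an established line, along a published protocol for hepatocyte-like cells, and the submitters labelled day 7 cells as hepatoblasts. The other libraries held cells given 30 nM T3 on day 7 and the same treatments on day 19. They were used for the shared estimate of the spread and where the T4 response is set beside them. The labels give no start or length of the hormone exposure and no vehicle for the hormone, and nothing in them says that replicate libraries were grown as separate cultures. The p-values therefore measure only the spread between libraries, which was estimated over all 12. Of 23922 genes with a deposited value, 18101 passed the filter on low counts and were tested.

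T4 is the main hormone released by the thyroid and is a weak ligand of the nuclear receptors encoded by THRA and THRB. Cells take it up through membrane transporters, and the deiodinases encoded by DIO1 and DIO2 remove an outer-ring iodine to make T3, the stronger ligand, while the enzyme encoded by DIO3 inactivates both hormones. Hepatoblasts are liver progenitors that descend from definitive endoderm and can become hepatocytes or bile duct cells; they express HNF4A and AFP, and lose the transcription factors of the pluripotent state.

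Each of the 4 libraries held 18363549 to 18450904 expected counts, and libraries of the same group differed little beyond sampling noise (chi-square per gene of 1.585 for DMSO and 1.623 for T4). Markers were read as FPKM, a level scaled to transcript length. In the DMSO libraries HNF4A stood at 83.8 and 83.9 FPKM, AFP at 71.9 and 74.5, TTR at 664 and 672 and APOA1 at 2407 and 2486, while ALB was at only 0.47 and 0.63. The primitive streak gene TBXT and the neural gene SOX1 had no entry in either DMSO table and were taken as 0; the lowest FPKM that the tables list is 0.01. The DMSO cells also held POU5F1 at 132 and 139 FPKM, the endothelial cadherin gene CDH5 at 3.85 and 3.95 and GATA3, a gene of amnion and trophectoderm, at 62.8 and 66.2. Other liver progenitor markers were also low: PROX1 stood at 0.22 and 0.23 FPKM, ONECUT1 at 0.10 and 0.37, NR5A2 at 0.39 and 0.44 and the transferrin gene TF at 0.50 and 0.31. The DMSO libraries thus held some markers of the labelled cell type at high levels and others near 0, beside transcripts of the pluripotent state and of other cell types.

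With T4, pluripotency genes were higher and genes of endoderm, early liver and endothelium were lower than with DMSO. Most called genes differed by less than 2-fold, but the pluripotency list had a median log2 difference of 1.14. edgeR's quasi-likelihood test called 1162 of the 18101 genes (6.42%) at an adjusted p of at most 0.05 (Benjamini-Hochberg over all tested genes). Of these, 706 were higher (3.9% of the tested genes) and 456 lower (2.52%). Of the tested genes 164 (0.906%) were called and differed by at least 2-fold, 124 higher and 40 lower, and at least 4-fold differences were found for 24 higher and 8 lower genes. The median log2 difference was 0.47 among the higher genes, -0.42 among the lower ones and 0.01 over all tested genes. Called genes had a median level of 29.01 CPM (higher) and 30.3 CPM (lower), where CPM are counts per 1000000 scaled counts, against 16.5 CPM for all tested genes.

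**Figure D1:**
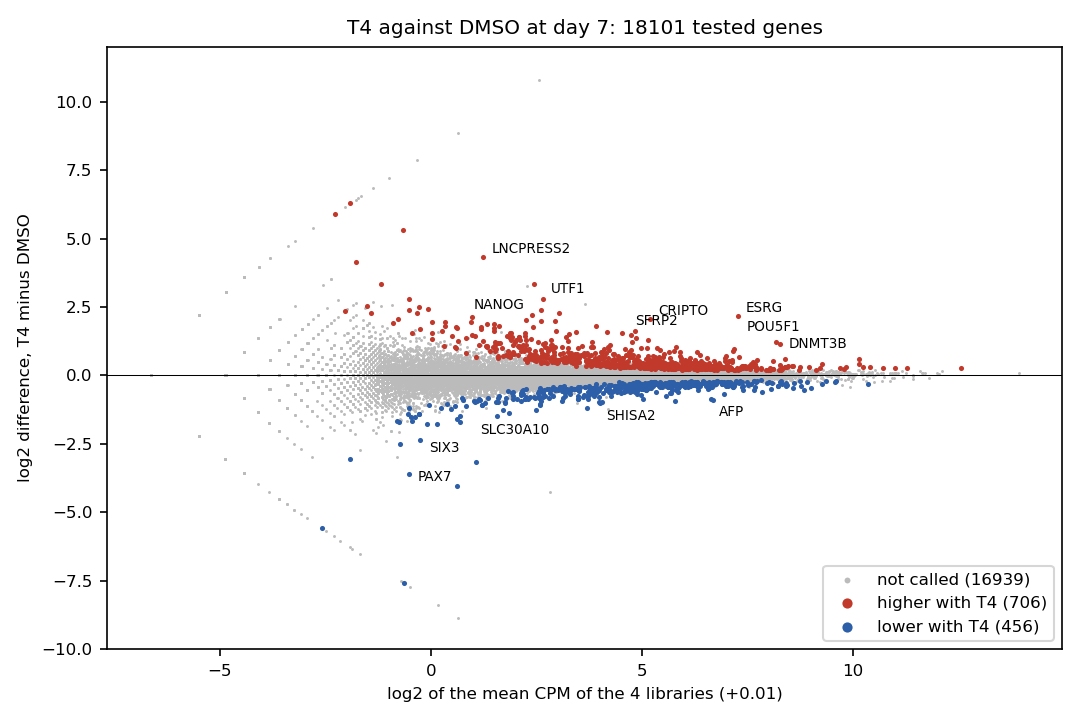
Each point is 1 of the 18101 tested genes: the x axis gives the log2 of its mean CPM in the 4 libraries plus 0.01, the y axis its fitted log2 difference, T4 minus DMSO. Red points (706) were called higher and blue points (456) lower with T4, grey points were not called; most called genes lie within 1 log2 unit of 0, and the lines of points at the far left are genes with few counts.

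The count depended on how the spread was estimated. All 12 libraries shared 1 estimate, and libraries of day 19 varied more: the common biological coefficient of variation was 5.42%, against 2.35% among the day 7 libraries. With only the libraries of day 7 fitted, the test called 3243 genes, 1734 higher and 1509 lower. Without DMSO replicate 1, DMSO replicate 2, T4 replicate 1 or T4 replicate 2 the count was 404, 406, 370 and 402. Values for single genes and lists below are given with this in mind. A count "without any 1 library" is the range over these 4 fits, and a call lost "without any 1 library" was lost in each of them. Such calls can also have been lost under settings that leave out no library, which is not stated for every gene.

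Transcripts of the pluripotent state made up the clearest group. Their list, like the other lists, was chosen with earlier results of these data known. Of 29 tested genes of a pluripotency list, 27 were higher and 0 lower, with a median log2 difference of 1.14 against 0.01 over all tested genes, and 21 to 23 were called without any 1 library. NANOG (Entrez gene 79923, GRCh38 chr12:7789402-7799146), a homeobox factor of the pluripotency core, was at 1.64 and 2.12 CPM in the DMSO libraries and at 7.91 and 9.26 CPM in the T4 libraries, a log2 difference of 2.19 (SE 0.18, adjusted p = 5e-06). POU5F1, which encodes OCT4 of the same core (chr6:31164337-31170682), was at 168 and 176 CPM with DMSO and at 403 and 408 CPM with T4, a log2 difference of 1.23 (95% interval 1.09 to 1.38). SOX2, the factor that pairs with OCT4, was at 54.3 and 58.5 CPM with DMSO and at 101 and 104 CPM with T4, a log2 difference of 0.86 (interval 0.71 to 1.01). For all 3 factors both T4 libraries lay above both DMSO libraries, and the calls held under every alternative that was run. Exons of POU5F1 overlap TCF19 on the opposite strand, and the strand of counting is not given in the sources used here.

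The largest rises in this list were in genes that were almost silent in the DMSO cells. LNCPRESS2, a long noncoding RNA of embryonic stem cells, went from 0.385 and 0.0481 CPM to 4.52 and 4.49 CPM, a log2 difference of 4.34 (SE 0.61). UTF1, a chromatin-bound factor of stem cells, was at 1.59 CPM in each DMSO library and at 10.6 and 11.3 CPM with T4, a log2 difference of 2.78 (SE 0.21, adjusted p = 2.06e-06). FGF4, the growth factor gene controlled by OCT4 and SOX2, went from 0.144 and 0.192 CPM to 1.08 and 1.32 CPM, but did not pass without DMSO replicate 1 or T4 replicate 2 (adjusted p up to 0.0678). Abundant transcripts rose as well. ESRG, a noncoding RNA derived from an endogenous retrovirus (chr3:54632124-54639857), was at 53.3 and 58.1 CPM with DMSO and at 249 and 255 CPM with T4, a log2 difference of 2.18 (SE 0.09, adjusted p = 1.5e-08). CRIPTO, long known as TDGF1 and encoding a co-receptor of Nodal, was at 13.9 and 14.4 CPM with DMSO and at 57.1 and 60.5 CPM with T4, a log2 difference of 2.05 (SE 0.10).

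Other stem cell genes differed by smaller steps. PRDM14, a transcriptional repressor of the pluripotent state, had a log2 difference of 1.98, SFRP2, a secreted WNT antagonist, of 1.46, KLF4 of 1.04, L1TD1 of 0.98 and DPPA4 of 0.90. The calls of these 5 held under every alternative. LIN28A, the RNA-binding protein gene that was already abundant with 1033 and 1046 CPM in DMSO, reached 1164 and 1191 CPM, a log2 difference of 0.18 that did not pass (adjusted p = 0.0517) but was called with DESeq2, after GC correction and in the fits of day 7 libraries. LIN28B did not pass either, at 0.13 (adjusted p = 0.304). The pluripotency list summed to 791 and 804 FPKM with DMSO and to 1342 and 1357 FPKM with T4. In a bulk sample, more cells of a type and more RNA per cell cannot be told apart.

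**Figure D2:**
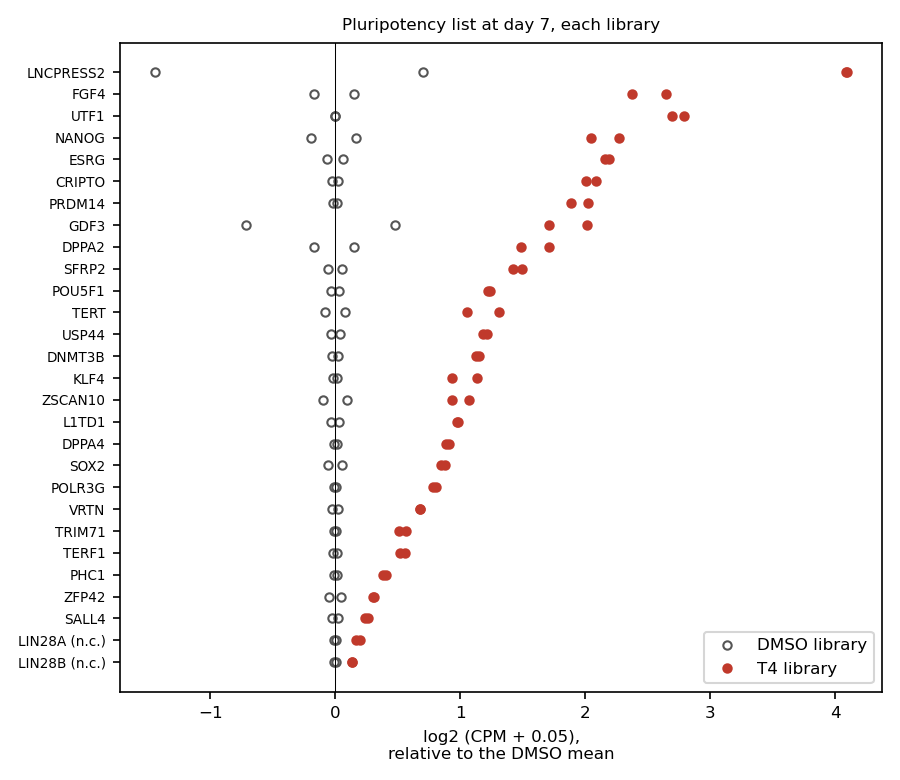
Each line is 1 gene of the pluripotency list; the x axis gives log2(CPM + 0.05) of a library relative to the mean of the 2 DMSO libraries, with open points for DMSO and filled points for T4. Both T4 libraries lie to the right of both DMSO libraries for every gene drawn; n.c. marks LIN28A and LIN28B, which were not called.

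Promoter sequence is shown for pluripotency genes because OCT4 and SOX2 bind DNA together at a composite element. RefSeq windows (GRCh38.p14, 250 bases before to 50 after the start) were searched on both strands for this element, spelled as CATTGT, 1 base of any kind and ATGCAAA, and for the octamer ATGCAAAT bound by OCT4, which shares bases with it. The composite spelling was in 3 of 27305 windows (0.011%) and the octamer in 492 (1.8%). Of the 108 genes named by the rule for this report 70 had a window; NANOG had the composite spelling, and SFRP2 and CDX2 had the octamer. CDX2, a gene of intestine and trophectoderm, was not called (log2 difference -0.39, adjusted p = 0.0832). A window with the composite spelling also belonged to NRARP, a feedback inhibitor of Notch signalling that was picked for this match after its values were seen: it was at 31.8 and 32.5 CPM with DMSO and at 45.1 and 46.8 CPM with T4, a log2 difference of 0.52 (adjusted p = 0.00939) that did not pass without any 1 library (adjusted p up to 0.0952). The third window with it belonged to LOC105370047, which was not among the genes tested. The 250 bases before the start follow, on the strand of the gene, with the matched letters in capitals. The coordinates are chr12:7789152-7789401 (NANOG, plus strand), chr4:153789084-153789333 (SFRP2, minus strand) and chr9:137302272-137302521 (NRARP, minus strand).
NANOG: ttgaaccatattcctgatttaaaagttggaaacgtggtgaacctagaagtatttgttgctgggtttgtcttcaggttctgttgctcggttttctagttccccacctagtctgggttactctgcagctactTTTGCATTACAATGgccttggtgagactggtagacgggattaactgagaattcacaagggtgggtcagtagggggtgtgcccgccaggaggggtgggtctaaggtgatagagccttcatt
SFRP2: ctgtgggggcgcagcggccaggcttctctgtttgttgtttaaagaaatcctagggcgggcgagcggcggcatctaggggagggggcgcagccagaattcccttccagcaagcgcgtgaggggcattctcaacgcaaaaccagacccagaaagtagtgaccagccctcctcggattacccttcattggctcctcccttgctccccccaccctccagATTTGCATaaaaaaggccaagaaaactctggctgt
NRARP: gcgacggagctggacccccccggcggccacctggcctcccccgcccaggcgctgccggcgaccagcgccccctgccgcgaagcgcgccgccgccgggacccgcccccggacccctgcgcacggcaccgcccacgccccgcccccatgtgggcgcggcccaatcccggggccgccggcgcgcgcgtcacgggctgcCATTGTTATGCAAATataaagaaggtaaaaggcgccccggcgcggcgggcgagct
The match began at position -120 from the start in NANOG, at -35 in SFRP2 and at -55 in NRARP. In NANOG and SFRP2 it lies on the opposite strand. A direct repeat of the nuclear receptor half-site AGGTCA with 4 bases between its copies, the textbook element of thyroid hormone receptors, was in 5 of 27305 windows (0.0183%) and in 0 of the 70 windows of named genes. A match is a string of letters and no measured binding, and elements outside these windows were not searched.

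Several of the largest rises were in genes outside the pluripotency list. TRPC7-AS2, a noncoding RNA antisense to TRPC7, had 1 count in the 2 DMSO libraries together and stood at 1.33 and 1.12 CPM with T4, a ratio of 50.9 (95% interval 8.72 to 2050, counting error only); it did not pass without DMSO replicate 1 (adjusted p = 0.0559). ALPG, a placental-type alkaline phosphatase gene, was at 1.78 and 2.12 CPM with DMSO and at 9.73 and 10.9 CPM with T4, a log2 difference of 2.40. C13orf42 was at 2.60 and 2.98 CPM with DMSO and at 12.6 and 14.4 CPM with T4, a log2 difference of 2.27 (SE 0.14, adjusted p = 3.27e-07). Also among the 15 largest rises, at a level of at least 1 CPM in 1 group, were the scaffold gene GRIP2, the retinal dehydrogenase gene ALDH1A3, the enamel protein gene AMBN and the channel gene TRPC6. Each of these 4 stayed under 2 CPM with T4. GRIP2 lost its call with limma on log2(FPKM + 1) (adjusted p = 0.0584). ALDH1A3 lost its call in the same limma fit and without DMSO replicate 2 or T4 replicate 1. AMBN was lost with DESeq2 and without DMSO replicate 1, DMSO replicate 2 or T4 replicate 2. TRPC6 was lost with DESeq2 and without any 1 library. TRPC7-AS2, GRIP2 and ALDH1A3 overlap a gene on the opposite strand.

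The Nodal pathway, which keeps human stem cells pluripotent and also specifies endoderm, was mixed. Of 21 tested members 5 were higher and 1 lower, with a median of 0.02, and without any 1 library the number called higher was 2. The rises were in CRIPTO, in the nuclear effector FOXH1 (23.2 and 23.7 CPM with DMSO, 44.9 and 48.3 CPM with T4, log2 difference 0.99) and, with few counts, in the ligand genes NODAL and GDF3 and the inhibitor LEFTY1. LEFTY1 had 0 and 1 counts with DMSO and 10 and 12 with T4. NODAL, GDF3 and LEFTY1 did not pass without any 1 library (adjusted p up to 0.184, 0.305 and 0.192). Of 11 tested primitive streak and mesendoderm genes 0 were called, with EVX1 at -0.54 (adjusted p = 0.274) and TBX6 at 0.75 (adjusted p = 0.0737); 1 of the 11 had an unadjusted p under 0.05 in edgeR, and 0 to 1 passed under the other settings, limma and DESeq2 included.

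Of 13 tested genes of DNA methylation writers, readers and erasers 3 rose and 0 fell, and 1, DNMT3B, was called in each fit without 1 library. DNMT3B, the de novo methyltransferase of stem cells (chr20:32762385-32809356), was at 189 and 195 CPM with DMSO and at 421 and 426 CPM with T4, a log2 difference of 1.14 (SE 0.07, adjusted p = 3.27e-07). Its cofactor gene DNMT3L, at 0.193 and 0.240 CPM with DMSO and 1.03 and 0.634 CPM with T4, and the maintenance enzyme gene DNMT1, at a log2 difference of 0.32, were called but not without any 1 library (adjusted p up to 0.262 and 0.23). The other 10 of 13 tested members, including the TET demethylation genes and DNMT3A (log2 difference -0.04), were not called.

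Endoderm genes were lower with T4. Of 16 tested definitive endoderm genes 9 fell and 0 rose, with a median of -0.39, and 4 to 6 were called without any 1 library. SHISA2, an endoplasmic reticulum protein that holds back WNT and FGF receptors (chr13:26044597-26052016), had the largest fall of the list, from 21.3 and 21.5 CPM to 9.97 and 11.2 CPM, a log2 difference of -1.02 (SE 0.12, adjusted p = 0.000122). SOX17, the defining transcription factor of definitive endoderm, went from 111 and 113 CPM to 77.6 and 79.3 CPM, a log2 difference of -0.51 (interval -0.64 to -0.38). PRDM1, a repressor active in endoderm, fell by 0.62 on the log2 scale. In these 3 genes both T4 libraries were below both DMSO libraries, and the calls held under every alternative. GATA4 fell by 0.41, GATA6 by 0.37 and FOXA2 by 0.33, and each lost its call without at least 1 library. GATA4 was lost without DMSO replicate 1 or T4 replicate 2 (adjusted p up to 0.0531), GATA6 without DMSO replicate 2 or T4 replicate 1 (0.0644) and FOXA2 without DMSO replicate 1, DMSO replicate 2 or T4 replicate 2 (0.174).

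Some liver progenitor genes were lower with T4. Of 19 tested hepatoblast transcription factor genes 8 were lower and 0 higher (median -0.37, 2 to 3 lower without any 1 library); this list shares called genes with the endoderm list, FOXA1, FOXA2, GATA4 and GATA6 among them. With only day 7 libraries fitted, 9 were lower and 2 higher. The liver-enriched factor genes CEBPA (49.3 and 47.8 CPM with DMSO, 56.0 and 57.8 CPM with T4) and CEBPB did not pass, at log2 differences of 0.23 each (adjusted p = 0.0788 and 0.24). TBX3, a T-box factor of liver bud outgrowth, fell from 198 and 201 CPM to 135 and 139 CPM, a log2 difference of -0.54 (SE 0.09, adjusted p = 0.00272), and held under every alternative. HNF4A, the nuclear receptor that sets hepatocyte identity (chr20:44355699-44434596), was at 341 and 342 CPM with DMSO and at 257 and 264 CPM with T4, a log2 difference of -0.39 (interval -0.57 to -0.21); without any 1 library it did not pass (adjusted p up to 0.126). Of 26 tested hepatoblast products 6 were lower and 0 higher (median -0.25), 2 to 3 without any 1 library and 17 at most under another setting. AFP, the fetal serum protein gene (chr4:73436221-73456174), was at 131 and 136 CPM with DMSO and at 71.2 and 72.4 CPM with T4, a log2 difference of -0.89 (SE 0.14, adjusted p = 0.00156). APOM, an apolipoprotein gene that overlaps BAG6 on the opposite strand, fell from 23.6 and 24.0 CPM to 15.4 and 16.9 CPM. The calls of AFP and APOM held under every alternative. Those of SERPINA1 (-0.66), TTR (-0.54), VTN (-0.40) and DLK1 (-0.66) did not pass without DMSO replicate 2, T4 replicate 1 or T4 replicate 2. Without DMSO replicate 1, TTR, VTN and DLK1 did not pass either. DLK1 was also lost with DESeq2, with no filter on low counts and with limma on log2(FPKM + 0.1) or log2(FPKM + 1). ALB, already near the detection limit, was at 0.962 and 1.30 CPM with DMSO and at 0.439 and 0.540 CPM with T4, which did not pass (adjusted p = 0.0637). The epithelial genes KRT18 and EPCAM did not pass, at -0.14 (adjusted p = 0.249) and 0.04 (adjusted p = 0.828).

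**Figure D3:**
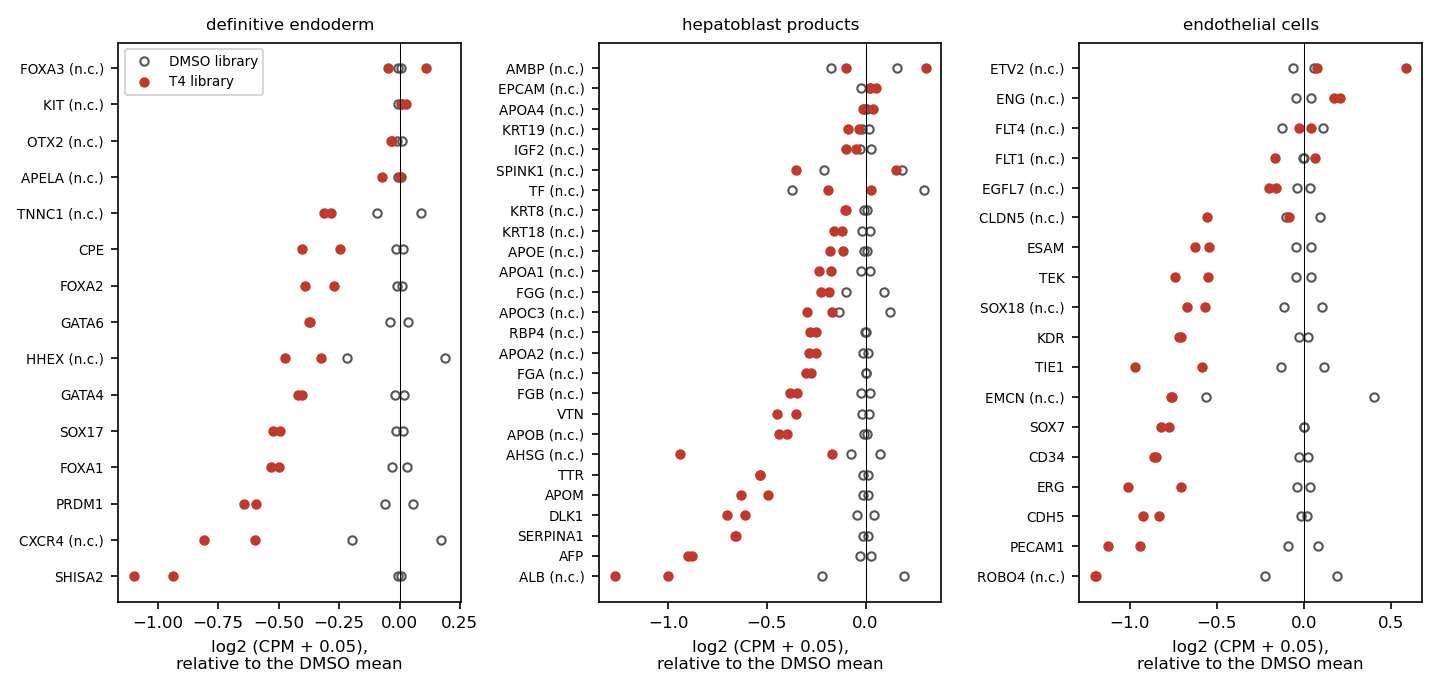
Levels of members of 3 lists in each library, as log2(CPM + 0.05) relative to the mean of the 2 DMSO libraries (open points DMSO, filled points T4). The T4 points of SHISA2, SOX17, AFP and CD34 lie left of the DMSO points; n.c. marks genes that were not called, and the x axes differ between the panels.

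Markers of other cell types moved too. Of 18 tested endothelial genes 9 were lower and 0 higher, with a median of -0.68, and 3 to 5 were called without any 1 library. CD34, a surface protein of endothelial and blood progenitors, was at 16.6 and 17.3 CPM with DMSO and at 9.31 and 9.38 CPM with T4, a log2 difference of -0.86 (SE 0.12, adjusted p = 0.000569). SOX7, an endothelial and endodermal transcription factor gene, was at 15.3 CPM in both DMSO libraries and at 8.63 and 8.94 CPM with T4, and CDH5, the cadherin of endothelial junctions, fell by 0.88 on the log2 scale; all 3 held under every alternative. PECAM1 fell by 1.04 and the receptor gene KDR by 0.71, PECAM1 losing its call without DMSO replicate 1 or T4 replicate 1 (adjusted p up to 0.0787) and KDR without DMSO replicate 2, T4 replicate 1 or T4 replicate 2 (up to 0.0784). The endothelial markers summed to 73.4 and 74.2 FPKM with DMSO and to 54.1 and 54.9 FPKM with T4. EGFL7 alone stood at 26.9 and 28.4 FPKM with DMSO. Of the 19 listed 0 were at 0 in both DMSO libraries together, though LYVE1 was at only 0 and 0.02 FPKM there. In the blood list TAL1 did not pass at -0.94 (adjusted p = 0.0504), 0 of 4 tested genes were called (1 at an unadjusted p under 0.05 in edgeR, 0 to 1 called under the other settings), and the summed level was 9.40 and 9.41 FPKM with DMSO and 7.03 and 9.05 FPKM with T4. Of 14 cardiac and early mesoderm genes 4 fell and 0 rose (median -0.38), the calls being HAND1, GATA5, MYL4 and PDGFRA, of which 0 to 1 passed without any 1 library; their list summed to 248 and 256 FPKM with DMSO and to 196 and 200 FPKM with T4.

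Few neural, mesenchymal and amnion markers were called. Their list medians were -0.15, -0.16 and 0.0, with positive differences for 3 of 11, 6 of 16 and 6 of 13 tested genes. PAX7, a paired-box gene of neural crest and muscle, was at 1.06 and 1.49 CPM with DMSO and at 0 and 0.195 CPM with T4, SIX3 of the anterior neural plate at 1.30 and 1.49 against 0.197 and 0.341 CPM, and PAX3 at 2.12 and 2.46 against 0.634 and 0.884 CPM. These 3 were called and were among the 15 largest falls, at very low levels. Each lost its call with the DESeq2 test, without DMSO replicate 1 and without T4 replicate 1. SIX3 was also lost without T4 replicate 2, and PAX3 without any 1 library and with limma on log2(FPKM + 0.1). Of 11 tested neural genes SIX3 and MAP2 (log2 difference -0.80) fell and NES (0.31) rose, MAP2 losing its call without DMSO replicate 2 or T4 replicate 1 (adjusted p up to 0.0647) and NES without any 1 library (up to 0.116). The summed level of the list was 130 and 132 FPKM with DMSO and 134 and 138 FPKM with T4. TUBB3 alone held 92.0 and 94.0 FPKM with DMSO and 90.9 and 94.4 FPKM with T4. Of 16 mesenchymal genes 2 fell, SNAI2 at -0.85, lost without DMSO replicate 1 or T4 replicate 1 (adjusted p up to 0.0652), and LRAT at -0.57, lost without any 1 library (up to 0.304). The list summed to 158 and 159 FPKM with DMSO and to 159.5 and 161 FPKM with T4. TAGLN alone held 62.0 and 63.0 FPKM with DMSO and 69.1 and 70.2 FPKM with T4. In the amnion list GABRP, a GABA receptor subunit gene, fell from 72.1 and 73.3 CPM to 35.7 and 39.7 CPM (log2 difference -0.95, SE 0.07, adjusted p = 3e-06), while KRT7, a simple epithelial keratin gene, rose from 63.2 and 63.6 CPM to 89.5 and 91.0 CPM (0.51) and TFAP2A rose by 0.32, a call lost without any 1 library (adjusted p up to 0.204). The calls of GABRP and KRT7 held under every alternative, and the other 10 of 13 members, GATA3 among them at 0.03, were not called. Whether other cell types were present, and what part they had in the falls of endoderm and liver genes, was not tested.

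Other falls were found in genes of transport and signalling. SLC30A10, a manganese exporter gene, went from 4.09 and 4.62 CPM to 1.42 and 1.71 CPM, a log2 difference of -1.47 (SE 0.21, adjusted p = 0.000848), and held under every alternative. KLF2, a shear-responsive transcription factor gene of endothelium and of naive stem cells, fell from 5.0 and 5.34 CPM to 1.33 and 2.68 CPM and was lost without T4 replicate 1 (adjusted p = 0.0609). CT75, LGI1, SLC34A2, the Notch ligand gene DLL4 and the natriuretic peptide clearance receptor gene NPR3 also fell, each at levels under 3 CPM. CT75 lost its call without DMSO replicate 2 or T4 replicate 1 (adjusted p up to 0.155), NPR3 without DMSO replicate 1, T4 replicate 1 or T4 replicate 2 (up to 0.124), and LGI1, SLC34A2 and DLL4 without any 1 library (up to 0.211, 0.332 and 0.26). The remaining 6 of the 15 largest falls are uncertain, since reads of read-through transcripts (DNAAF4-CCPG1, SENP3-EIF4A1) or near-identical copies (C4B_2, FAM74A3, FAM27E3, GOLGA8O) can be divided differently in each library: C4B_2 was at 1.97 and 0.577 CPM with DMSO and at 0 in both T4 libraries, and its call was lost with limma and without DMSO replicate 1, T4 replicate 1 or T4 replicate 2 (adjusted p up to 0.28).

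Genes of cell division were slightly higher. Of 20 S phase genes 12 rose and 0 fell (median 0.29), and of 20 mitosis genes 9 rose and 0 fell (median 0.26); without any 1 library 4 to 5 of each were called. RRM2, a subunit of ribonucleotide reductase, was at 55.9 and 57.4 CPM with DMSO and at 72.1 and 75.4 CPM with T4, a log2 difference of 0.38 (SE 0.06). The mitotic kinase gene AURKB was at 45.7 and 47.1 CPM with DMSO and at 62.7 and 64.3 CPM with T4, a log2 difference of 0.45 (SE 0.06, adjusted p = 0.000255). PLK1 had a difference of 0.43, CDT1, a licensing factor gene, of 0.49 and the helicase subunit genes MCM3 and MCM4 of 0.33 each, and these held under every alternative. The proliferation marker MKI67 did not pass, at 0.27 (adjusted p = 0.154). Among 16 cell cycle inhibitor and p53 target genes CDKN1A (0.48) and BBC3 (0.56) were higher. CDKN1A lost its call without DMSO replicate 1 or T4 replicate 1 (adjusted p up to 0.0938) and BBC3 without DMSO replicate 1, DMSO replicate 2 or T4 replicate 2 (up to 0.0956).

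Many glycolysis genes were slightly higher with T4. Of 21 tested genes of glycolysis and glucose uptake 14 were higher and 0 lower, with a median of 0.27; 5 to 6 were called without any 1 library, and 18 were higher and 2 lower with only day 7 libraries fitted. The abundant glucose transporter gene SLC2A3 (-0.11, adjusted p = 0.199) and PFKFB3 (-0.19, adjusted p = 0.126) did not pass. ENO2, an enolase isoform gene, was at 38.3 and 40.3 CPM with DMSO and at 61.4 and 62.3 CPM with T4, a log2 difference of 0.65 (SE 0.06, adjusted p = 2.34e-05). PGK1, which encodes a kinase of lower glycolysis, went from 518 and 541 CPM to 698 and 711 CPM, a difference of 0.41, and ALDOA, the aldolase gene, had 0.40 and GPI, the isomerase gene, 0.31. Of 15 hypoxia response genes 4 were higher and 0 lower (median 0.11), with PDK1, a kinase that holds pyruvate from the mitochondria, at 0.50 and ADM, the adrenomedullin gene, at 0.42, but VEGFA at -0.21 was not called. ADM did not pass without DMSO replicate 1, DMSO replicate 2 or T4 replicate 1 (adjusted p up to 0.0707). Of 23 oxidative phosphorylation genes only ATP5MC1 (0.29) was called, and of 22 cytosolic ribosomal protein genes 0 were called (0 at an unadjusted p under 0.05 in edgeR, 0 to 7 called under the other settings). Small positive differences were found for 20 of the 23 (median 0.085) and for all 22 (median 0.068). In cholesterol synthesis and uptake HMGCS1 at -0.25 was the single call of 23 genes, with a median of -0.10 and 4 positive differences. With only day 7 libraries fitted 9 were called lower and 2 higher. FADS2 (-0.21) and DGAT1 (-0.29) were the calls of 20 lipid genes. HMGCS1, FADS2 and DGAT1, like ATP5MC1, were lost without any 1 library. HMGCS1 and DGAT1 were also lost with limma on log2(FPKM + 0.1), and ATP5MC1 with DESeq2 and with limma on log2(FPKM + 0.1) or log2(FPKM + 1).

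**Figure D4:**
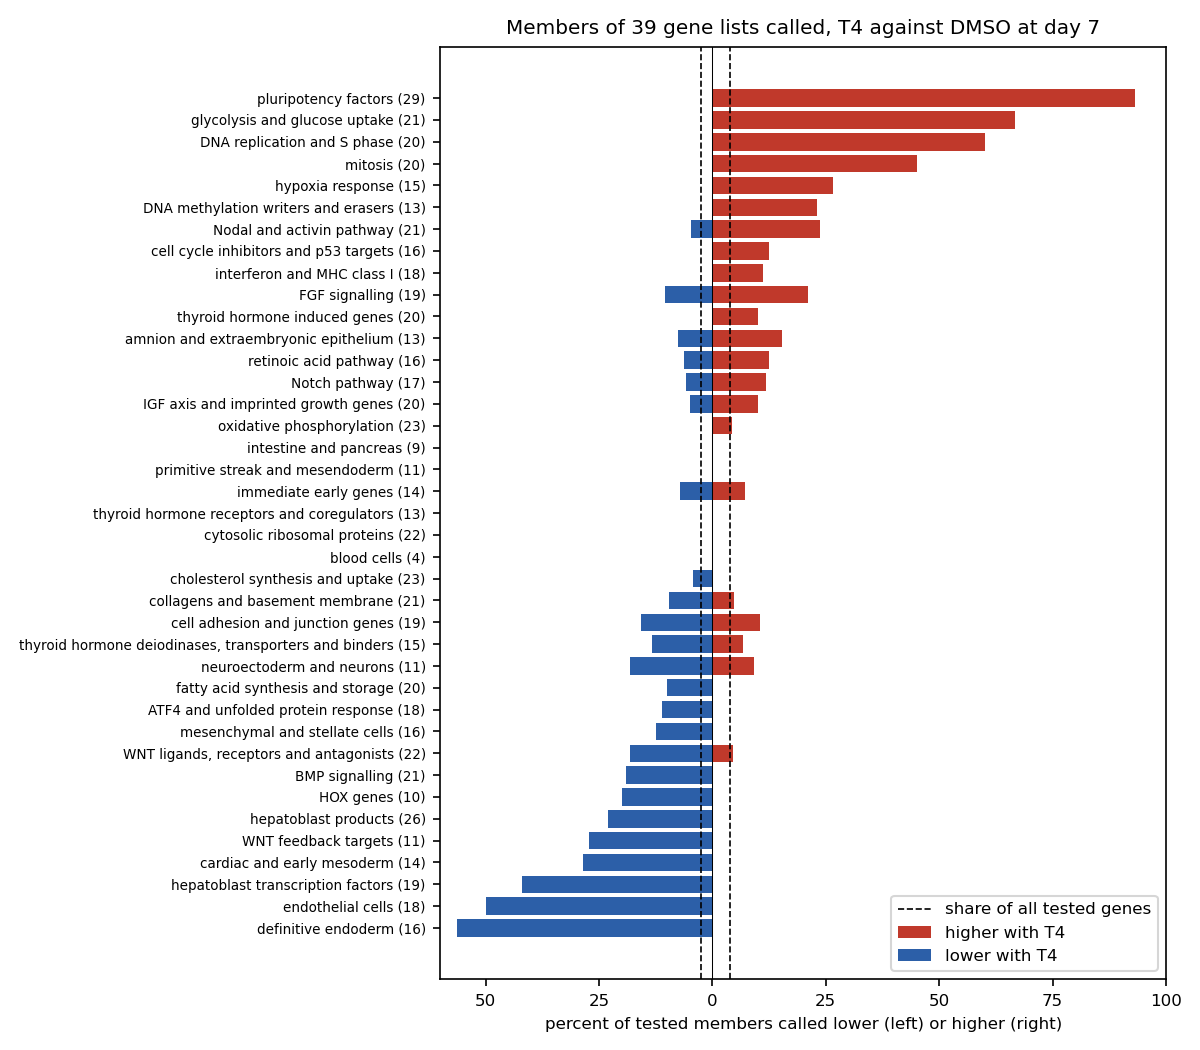
For each of the 39 gene lists, the bar to the right gives the percent of tested members called higher with T4 and the bar to the left the percent called lower; the number of tested members is in brackets and the dashed lines mark the shares over all tested genes, 3.9% higher and 2.52% lower. The longest bars are pluripotency, glycolysis and S phase to the right and definitive endoderm, endothelium and hepatoblast factors to the left.

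In the FGF signalling list FGF4, FGF2, SPRY4 and ETV4 rose and DUSP4 and FGFRL1 fell out of 19. FGF2 was lost without any 1 library (adjusted p up to 0.232), SPRY4 without DMSO replicate 2 or T4 replicate 1 (up to 0.0706) and FGFRL1 without DMSO replicate 1 or T4 replicate 2 (up to 0.0927). ETV4, an FGF-responsive factor gene that overlaps DHX8 on the opposite strand, was at 3.32 and 3.75 CPM with DMSO and at 7.66 and 8.63 CPM with T4, a log2 difference of 1.20, while DUSP4, a phosphatase gene that limits the same kinase cascade, fell from 20.7 and 21.2 CPM to 10.7 and 10.8 CPM, a difference of -0.96 (SE 0.08, adjusted p = 9.34e-06). Of 22 WNT ligand, receptor and antagonist genes SFRP2 rose, and FZD4, DKK1, LGR5 and WNT11 fell. FZD4 went from 162 and 163.5 CPM to 118 and 123 CPM (-0.44) and held under every alternative, while DKK1 (-0.76) was lost without DMSO replicate 1, T4 replicate 1 or T4 replicate 2 (adjusted p up to 0.114), and LGR5 and WNT11 without any 1 library (up to 0.253 and 0.25). In the BMP list BMP2, a ligand gene, fell from 111 and 112 CPM to 83.2 and 85.0 CPM (-0.40), and its antagonist gene GREM1 (-1.10), SMAD9 (-0.38) and MSX1 (-0.33) fell, out of 21 (median -0.16); without any 1 library 1 to 2 were called lower, and 12 with only day 7 libraries fitted. Of 10 tested HOX genes HOXB2 (-0.59) and HOXB3 (-0.84) fell, 0 of the 10 had a positive difference and the median was -0.73; 2 were called without any 1 library. COL2A1, the cartilage collagen gene that is also expressed in early embryos, fell from 125 and 131 CPM to 68.9 and 70.1 CPM (-0.88, SE 0.10). Among adhesion genes the epithelial cadherin gene CDH1 rose by 0.30 and the neural cadherin gene CDH2 went from 385 and 386 CPM to 296 and 298 CPM (-0.38), with VIM at -0.40; CDH2 held under every alternative, and CDH1 and VIM did not pass without any 1 library (adjusted p up to 0.111 and 0.135). IFITM1, an interferon-inducible membrane protein gene of early embryonic cells, rose from 29.7 and 29.8 CPM to 56.1 and 56.5 CPM (0.92), with TAP1 at 0.72; the other 16 of 18 interferon and MHC class I genes were not called.

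Neither thyroid hormone receptor gene passed, while 3 of 15 tested deiodinase, transporter and binding protein genes did, DIO3 higher and DIO2 and TTR (-0.54, given above) lower, with a list median of -0.02. THRA was at 20.3 and 21.5 CPM with DMSO and at 21.0 and 21.3 CPM with T4 (log2 difference 0.02, interval -0.22 to 0.26), and its sign turned under 4 of the other settings. THRB was at 7.36 and 7.79 CPM with DMSO and at 9.31 and 9.97 CPM with T4 (0.35, interval 0.09 to 0.61, adjusted p = 0.111). Both overlap a gene on the opposite strand. Of 13 receptor and coregulator genes 0 were called (1 at an unadjusted p under 0.05 in edgeR), and 0 to 2 were called higher and 0 to 1 lower under the other settings. DIO3, the gene of the inactivating deiodinase, rose from 11.7 and 14.0 CPM to 22.7 and 22.8 CPM, a log2 difference of 0.82 (SE 0.14, adjusted p = 0.00272), and was lost without DMSO replicate 1 (adjusted p = 0.0513). DIO2, the gene of the activating enzyme, fell from 30.2 and 32.1 CPM to 22.3 CPM in both T4 libraries, a difference of -0.48 (adjusted p = 0.00822) that did not pass without any 1 library (adjusted p up to 0.145); it overlaps DIO2-AS1 on the opposite strand. DIO1 stood at -0.16 (adjusted p = 0.78). Of 20 tested genes that thyroid hormone induces in other cells, KLF9 (0.49, adjusted p = 0.0495) and DIO3 were called. The call of KLF9 was lost with DESeq2, with no filter on low counts, with limma at either pseudocount and without any 1 library. HR, a corepressor gene often used as a marker of the hormone response, was at 0.433 and 0.722 CPM with DMSO and at 0.878 and 1.18 CPM with T4 and did not pass (0.82, adjusted p = 0.185).

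T4 and T3, which differ by an outer-ring iodine that T3 lacks, were given at the same dose of 30 nM, and the pair was compared directly on day 7 with p-values adjusted over the 18101 genes. Pluripotency transcripts were lower with T4 than with T3. Between the hormones 66 genes passed (0.365%), of which 7 were higher after T4 (0.0387%) and 59 lower (0.326%), and 1275 had an unadjusted p under 0.05; 19 to 24 were called without any 1 of the 4 libraries and 397 with only day 7 libraries fitted. Of the 29 pluripotency genes 12 were lower with T4 and 0 higher. NANOG was at 19.1 and 20.2 CPM with T3 against the 7.91 and 9.26 CPM with T4, a difference of -1.20 on the log2 scale (interval -1.49 to -0.90, adjusted p = 0.000658). ESRG was at 496 and 508.5 CPM with T3 against 249 and 255 CPM with T4 (-0.995, interval -1.17 to -0.82, adjusted p = 3.98e-05), and SFRP2 at 64.2 and 65.8 CPM against 38.5 and 40.4 CPM (-0.72, interval -0.86 to -0.58). SOX2 did not pass, at 118 and 121 CPM with T3 against 101 and 104 CPM with T4 (-0.22, interval -0.36 to -0.08, adjusted p = 0.316). The differences of ESRG, SFRP2, CRIPTO (-0.85), DPPA4 (-0.56) and C13orf42 (-1.06) held under every alternative, that of NANOG was lost with limma on log2(FPKM + 0.1) (adjusted p = 0.0698), and those of POU5F1 (-0.51) and DNMT3B (-0.53) were lost without T4 replicate 1, T4 replicate 2 or T3 replicate 1 (adjusted p up to 0.0744 and 0.0664), POU5F1 also with limma on FPKM (up to 0.213).

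Of the 92 genes named for T4 and called against DMSO, 14 were lower and 1, CDH2 (0.33, adjusted p = 0.045), was higher with T4 than with T3, a call lost without any 1 library (adjusted p up to 0.446). The 5 largest positive differences were JMJD7-PLA2G4B (1.69), a read-through transcript and therefore uncertain, COL19A1 (0.82), the LIM homeobox gene LHX5 (0.74), the Notch ligand gene DLL1 (0.48) and RHBDL3 (0.40); JMJD7-PLA2G4B was lost without T3 replicate 1 (adjusted p = 0.0545), and the last 4 did not pass without any 1 library (up to 0.283, 0.234, 0.317 and 0.518). At the other end stood FAM74A3 (-2.76, one of several near-identical copies), FOSL1 (-1.50), ALDH1A3 (-1.38), TLR8-AS1 (-1.30) and NANOG. FAM74A3 and FOSL1 were lost without any 1 library (adjusted p up to 0.291 and 0.546) and ALDH1A3 without T4 replicate 2, T3 replicate 1 or T3 replicate 2 (up to 0.456). TLR8-AS1, antisense to TLR8, was at 1.25 and 1.49 CPM with DMSO, 4.32 and 5.22 CPM with T4 and 11.5 and 12.1 CPM with T3, and its difference held under every alternative. No difference between the hormones passed for DUSP4 (0.05, interval -0.14 to 0.25), TBX3 (0.07, -0.13 to 0.27), BMP2 (0.03, -0.11 to 0.17), RRM2 (-0.06, -0.18 to 0.06), DIO2 (-0.06, -0.27 to 0.15), AFP (-0.33, -0.64 to -0.03) or HNF4A (0.13, -0.05 to 0.31).

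**Figure D5:**
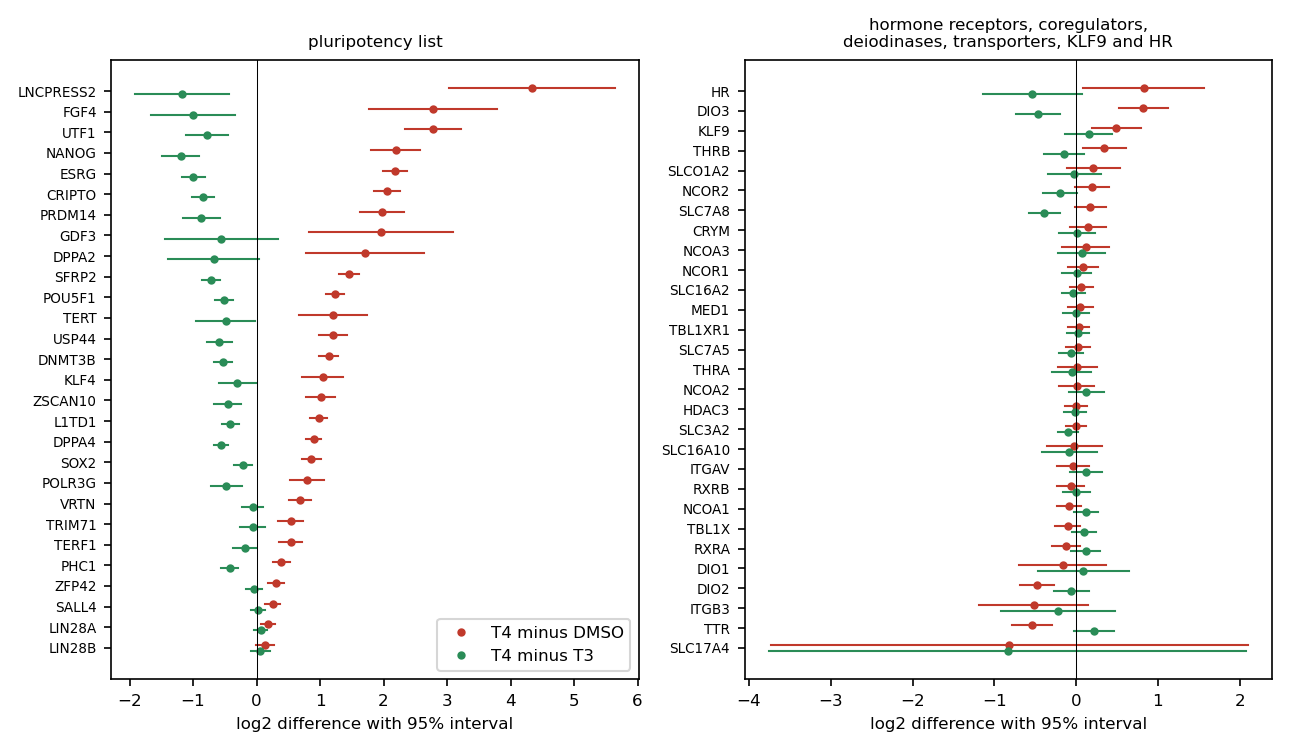
Fitted log2 differences on day 7 with their 95% intervals for genes of the pluripotency list (left) and for receptor, coregulator, deiodinase and transporter genes with KLF9 and HR (right); red is T4 minus DMSO and green T4 minus T3. Both are drawn from the same T4 libraries, so the 2 intervals of a gene are not independent; on the left the red points lie right of 0 and most green ones left of it.

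On day 19, with other libraries as treated and control cells, the T4 response had a different make-up. The T4 effect differed between the days for 5018 genes (27.7%), tested as an interaction. It had a larger value on day 19 for 2250 (12.4%) and a smaller one for 2768 (15.3%). With limma on log2(FPKM + 0.1), a fit without the scaling between libraries used in edgeR, the balance turned, with 3908 larger and 1816 smaller. Among the 706 genes that were higher on day 7, 311 (44.1%) were higher and 111 (15.7%) lower with T4 on day 19, which is 8.2% of all genes higher and 2.8% of all genes lower on that day; over all tested genes the shares were 21.0% and 21.9%, together 42.8%. Among the 456 genes that were lower, 214 (46.9%) were lower and 89 (19.5%) higher on day 19, 5.4% and 2.35% of the genes called on that day. Most pluripotency rises were not found on day 19, when 11 of the 29 genes were higher and 1 lower with T4 (median 0.11, against shares of 21.0% and 21.9% over all tested genes). POU5F1 was at 4.24 and 4.43 CPM with DMSO and at 3.54 and 5.28 CPM with T4 on day 19 (log2 difference 0.03, adjusted p = 0.922; difference between the days -1.21, adjusted p = 0.000186). ESRG, CRIPTO, NANOG, C13orf42, FOXH1 and DNMT3B also differed between the days, under every alternative. For SOX2, which rose on both days (1.11 on day 19), the effects did not differ by this test (0.24, adjusted p = 0.5).

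Of the 92 named and called genes 53 had a different T4 effect on day 19, 38 were called in the same direction on that day and 14 in the other. The effect differed for 49.4% of the 706 genes higher and 61.2% of the 456 lower on day 7, against 27.7% of all tested genes. Genes called on day 7 were selected by an effect that also enters the difference between the days, so these counts are no independent result. SFRP2, which rose by 1.46 on day 7, went from 91.1 and 99.1 CPM with DMSO to 42.0 and 43.9 CPM with T4 on day 19 (-1.15; difference between the days -2.61, adjusted p = 9.97e-10). The opposite turn was seen for COL2A1, at 666 and 696 CPM with DMSO and 1557 and 1562 CPM with T4 on day 19 (1.20; difference 2.07), DUSP4 (1.30; difference 2.26), MAP2 (1.94; difference 2.74), TBX3 (1.36; difference 1.89) and SHISA2 (0.71; difference 1.73). AFP fell on both days, by 0.89 on day 7 and by 4.20 on day 19, when it went from 32920 and 35450 CPM to 1685 and 2022 CPM (difference -3.31, adjusted p = 4.53e-08). DIO3 rose on both days, by 0.82 and by 1.80 (difference 0.97, adjusted p = 0.00074). For SOX17 (difference 0.10, adjusted p = 0.59), CD34 (0.14, adjusted p = 0.632), RRM2 (-0.05, adjusted p = 0.756) and KLF9 (0.05, adjusted p = 0.857) the effects of the 2 days did not differ by this test. The fit gave its 5 largest and 5 smallest day differences to SERF1A, SENP3-EIF4A1, C4B_2, MIA-RAB4B, PTENP1, SULT1A3, POTEE, RN7SL1, PNMA5 and CRHR1, most of them copies, pseudogenes or read-through transcripts whose reads are shared, and no fold change is given for them.

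Transcript properties differed between the called genes. Of 15625 protein-coding genes 666 were higher (4.26%) and 430 lower (2.75%), and of 1784 long noncoding RNA genes 32 were higher (1.79%) and 16 lower (0.897%). Higher genes had a median GC content of 53.6% over the longest GENCODE transcript and lower genes one of 48.0%, against 49.0% for all tested genes. Over 5 equal classes of GC content, from the lowest to the highest, the share called higher was 2.03%, 2.87%, 4.28%, 4.97% and 6.25%, while the share called lower ran from 2.21% to 3.23% without such an order. Chromosome 19 had the highest share of higher genes, 79 of 1291 (6.12%), with 15 lower, and chromosome 4 had 22 higher and 32 lower of 665. With the counts corrected for GC content 1252 genes were called, 716 higher and 536 lower, so that 57.2% of the calls were higher against 60.8% without the correction. The part of GC content in the single differences was otherwise not tested.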

How the data were processed

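Per the submitters' processing notes, HISAT, Bowtie2 and RSEM were used with the genome build hg38; their versions and roles and the strand setting are not given in the sources used here. The authors deposited 1 table per library with an expected count (RSEM's estimate, which need not be whole) and an FPKM value per RefSeq transcript, and the lowest FPKM in the tables is 0.01. Expected counts were summed per Entrez gene over transcripts and rounded; 23801 of 23922 genes matched a RefSeq symbol, and the 121 others held 0.135% to 0.144% of the counts in the 4 libraries. Totals of the 12 libraries ran from 18363549 to 19306181. Genes were filtered with filterByExpr over the 6 groups, scaled by TMM and tested with edgeR 4.0.16 (quasi-likelihood test, R 4.3.3), with all 12 libraries and 1 mean per group, so that the groups share 1 estimate of the spread (6 residual degrees of freedom), and Benjamini-Hochberg adjustment over the 18101 tested genes. Intervals are 95% intervals of the fitted log2 difference. Alternatives used DESeq2 1.42.0, limma 3.58.1 on log2(FPKM + 0.1) and log2(FPKM + 1), another scaling, no filter, fewer libraries, each library left out, a replicate block and, added after seeing the data, a GC correction; a fold on the log2(FPKM + pseudocount) scale understates changes of low genes. On simulated counts for T4 against DMSO on day 7 (18101 genes), 98 of 100 genes changed 2-fold and 100 of 100 changed 4-fold were recovered, with 7 false calls. Recovery of changes smaller than 2-fold was not tested. Of the called genes, 61.76% of the higher and 72.15% of the lower ones differed by less than 1.5-fold. Same-numbered libraries did not deviate together (r = 0.00691 for T4 and DMSO on day 7), so they were not treated as pairs.

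The comparison and the 39 gene lists were chosen with earlier results of these data known. Genes are named by this rule: the 15 largest and 15 smallest log2 differences among called genes with a mean of at least 1 CPM in 1 group and no overlap of the groups, without LOC, LINC and MIR symbols; the 2 members of each list with the smallest p; and a set of key pluripotency, liver and thyroid hormone genes. For the other comparisons the 5 largest and 5 smallest were taken. Some genes are not reported here by name, though counts over all genes and lists include them. Other list members are named as examples chosen after their values were seen.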

Additional observations from a re-analysis of the deposited data

Results flagged for a closer look

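The T4 effect differed between day 19 and day 7 for 5018 genes in edgeR's quasi-likelihood test of the interaction. Among the key genes, the day 19 effect minus the day 7 effect was, on the log2 scale, -1.21 for POU5F1, -2.24 for NANOG, -3.31 for AFP, -1.03 for HNF4A, 0.97 for DIO3 and -0.84 for THRA, each under every alternative. The corepressor gene HR had a difference of -1.62 that also held. The differences of ALB (-1.57) and THRB (-0.49) did not hold throughout: ALB was lost without day 7 DMSO replicate 2 or day 7 T4 replicate 1 (adjusted p up to 0.116), and THRB without day 7 DMSO replicate 1 or day 7 T4 replicate 1 (up to 0.0888) and with limma on FPKM (up to 0.287).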

How the results depend on the processing

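The number of genes called for T4 against DMSO on day 7 (1162) became 773 with DESeq2, 3243 with the day 7 libraries alone, 3215 with the 4 libraries alone and 370 to 406 with each library left out. For T4 against T3 (66) it became 397, 208 and 19 to 24 in the last 3 settings and 34 with limma on log2(FPKM + 0.1). In a fit with the replicate number as a block, the 12 libraries gave 1187, 64 and, for the difference between the days, 4965 genes, and the day 7 libraries alone gave 3494 and 492. For the difference between the days limma on log2(FPKM + 0.1) called 5724 genes, 68.3% of them higher on day 19 against 44.8% in edgeR, as the median over all tested genes moved from -0.01 to 0.14; with log2(FPKM + 1) the share was 67.2%. The limma fits used FPKM without the TMM scaling of edgeR. The TMM factors were 0.933 and 0.939 for T4 and 0.855 for both DMSO libraries on day 19. On day 7 they were 1.11 for both T4 libraries and 1.13 for both DMSO libraries. The part of this scaling in the limma shift was not tested. The cause of the other shifts was not tested either, except that fewer libraries were fitted where libraries were left out. THRA, near 0, turned to -0.0108 and -0.0099 with limma (pseudocounts 0.1 and 1), -0.0255 without DMSO replicate 1 (0.0593 was the highest value with a library left out) and -0.0132 after GC correction, and the SP5 difference between the days turned to 0.0248 with limma on log2(FPKM + 1). Of 108 named genes 92 were called, 41 of these under every alternative and 60 under those that leave out no library. A library left out leaves 1 sample in its group, which is assumed to vary like the other groups. At 3 counts over both libraries the floor was 0.0722 CPM for DMSO and 0.0734 CPM for T4, and differences of genes near it were not resolved at this depth.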

Other observations

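Several further gene groups changed in few members. Of 17 tested Notch pathway genes the target gene HEY2 (0.76) and the receptor gene NOTCH1 (0.47) rose and the ligand gene DLL4 fell (median 0.07), HEY2 being lost without DMSO replicate 1 or T4 replicate 2 (adjusted p up to 0.0941, edgeR and DESeq2) and NOTCH1 and DLL4 without any 1 library (up to 0.199 and 0.26). Of 16 retinoic acid genes ALDH1A3 and the binding protein gene CRABP1 (0.49) rose and the retinol dehydrogenase gene RDH10 (-0.42) fell, CRABP1 being lost without DMSO replicate 2 or T4 replicate 1 (up to 0.0955) and RDH10 without any 1 library (up to 0.198). Of 11 WNT feedback genes SP5 (-0.54), NKD1 (-0.44) and TNFRSF19 (-0.28) fell, of which 0 to 1 were called without any 1 library. In the ATF4 and unfolded protein response list of 18 the cystine transporter gene SLC7A11 (-0.39) and CHAC1 (-0.39), which encodes a glutathione-degrading enzyme, fell. CHAC1 was lost without any 1 library. It was also lost with DESeq2, with no filter on low counts, with the replicate block over the 12 libraries and with limma at either pseudocount. SLC7A11 was lost with limma on log2(FPKM + 0.1) (adjusted p = 0.0605). Of 20 imprinted and IGF axis genes PEG10 (0.32) and IGF2BP3 (0.25) rose and DLK1 fell, 0 in either direction without any 1 library. The immediate early gene IER2 rose (0.42, every alternative), and of 9 tested intestine and pancreas genes 0 were called by edgeR, with 2 at an unadjusted p under 0.05 and 0 to 2 called under the other settings. Of 21 collagen and basement membrane genes COL2A1 and COL5A2 (-0.54) fell and COL9A3 (0.44) rose, with a median of -0.13, 6 positive differences and 12 lower against 2 higher calls with only day 7 libraries fitted; COL5A2 was lost without any 1 library (up to 0.124) and COL9A3 without DMSO replicate 1, DMSO replicate 2 or T4 replicate 1 (up to 0.17).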
